A study of Homo sapiens with 2 samples.

Results

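The DNAJB chaperones described here are 7 genes, DNAJB1, DNAJB2, DNAJB4, DNAJB5, DNAJB6, DNAJB12 and DNAJB14, of 19775 named genes on the array. They were measured by all 15 probe sets, of 41091 with a single gene name, that the platform annotation assigns to exactly 1 of these genes. Messenger RNA was profiled on Affymetrix arrays in C4-2, an androgen receptor-positive human prostate cancer line derived from LNCaP. Both groups were C4-2 cultures in RPMI medium with serum, transfected with RNAiMax and harvested after 48 h. One received the microRNA miR-99a, and the other received the control small interfering RNA si-GL2. Each group is 1 array, so there is no replicate error and no p-value for any value below, and an effect of miR-99a cannot be told apart from an effect of si-GL2 or from any other difference between the cultures. The family was chosen by the measured difference of DNAJB4, which had a low signal with miR-99a, so all differences here are a description and support nothing further.

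J-domain proteins are the partners that direct the chaperone HSP70 to its substrates. Their J domain stimulates HSP70 to hydrolyse ATP, which locks the bound client protein in place, while the rest of the J-domain protein recognises clients. DNAJB1, DNAJB4 and DNAJB5 are closely related cytosolic proteins with a glycine- and phenylalanine-rich linker, DNAJB2 and DNAJB6 hold back protein aggregation, and DNAJB12 and DNAJB14 sit in the endoplasmic reticulum membrane with the J domain facing the cytosol. MicroRNAs lower the stability and translation of messenger RNAs that pair with their seed.

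The mature sequences of the transfected microRNA are shown because its seed, bases 2 to 8, is the part that selects target messages. RefSeq (GRCh38.p14) places miR-99a-5p at chr21:16539101-16539122 and miR-99a-3p at chr21:16539138-16539159, both on the plus strand. The labels name no arm. The mature miRNAs with the same seed as miR-99a-5p in this table were miR-99b-5p (chr19:51692618-51692639, plus strand) and miR-100-5p (chr11:122152275-122152296, minus strand). Capitals mark the seed.
miR-99a-5p: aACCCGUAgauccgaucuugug
miR-99b-5p: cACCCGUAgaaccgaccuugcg
miR-100-5p: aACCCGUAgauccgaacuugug
miR-99a-3p: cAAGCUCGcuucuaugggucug
Whether the members' messages hold matches to these seeds was not analysed here.

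The deposited values are signal intensities on a linear scale, 1 for each probe set, and differences below are log2(signal + 16) after miR-99a minus the same after si-GL2. This scale understates the change of dim genes. A probe set counted as expressed when its mean level over both arrays reached the median of all probe sets, a signal of 47.2, which is a relative limit and no detection call. A gene was represented by its brightest probe set, and 12218 genes were expressed. The SD of the difference over these genes was 0.26, their median was -0.03, and 95% of them lay between -0.61 and 0.46. The differences of probe sets of the same gene had a pooled SD of 0.20 about the gene's mean, over 5842 genes with at least 2 expressed probe sets. All of them share the same 2 arrays, so this SD measures no error between arrays or cultures. The 18 hybridisation spike probe sets differed by -0.12 to 0.06. Of the markers fixed for the line, the 4 analysed here (KLK3, KLK2, FOLH1 and TMPRSS2) were expressed on both arrays, with signals from 312 to 7147. Summed signals of 5 fibroblast markers were 500 with miR-99a against 429 with si-GL2. The sums were 118 against 77.1 for 3 leukocyte genes and 222 against 215 for 3 endothelial genes. By the expression limit, 4 of the fibroblast, 1 of the leukocyte and 1 of the endothelial genes were expressed. The part of such cell types in the results was not tested.

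DNAJB4 was lower after miR-99a by both of its probe sets, and it was the 1 member gene past 1.5-fold. DNAJB14 was higher by all 3 of its probe sets, of which 1 passed 1.5-fold. DNAJB2 and DNAJB6 were lower by less than 1.5-fold, each by the 1 probe set of its own. For DNAJB6, 2 brighter probe sets shared with TMEM135 differed by 0.02 and 0.19. DNAJB1, DNAJB5 and DNAJB12 lay close to 0 by their brightest probe sets. All 7 genes were expressed, as were 14 of the 15 probe sets. Of the genes, 1 passed 1.5-fold downward, where 2.90% of all expressed genes did, and 0 passed it upward, where 1.21% did. Of the 14 probe sets, 2 were lower and 1 was higher, against 2.76% and 1.53% of 22401 expressed probe sets with a single gene name. Since DNAJB4 was chosen for its value, nothing is read from these shares. The median over the 7 genes was -0.02, close to the median of -0.03 over all expressed genes, with 4 members below 0 and 3 above.

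**Figure D1:**
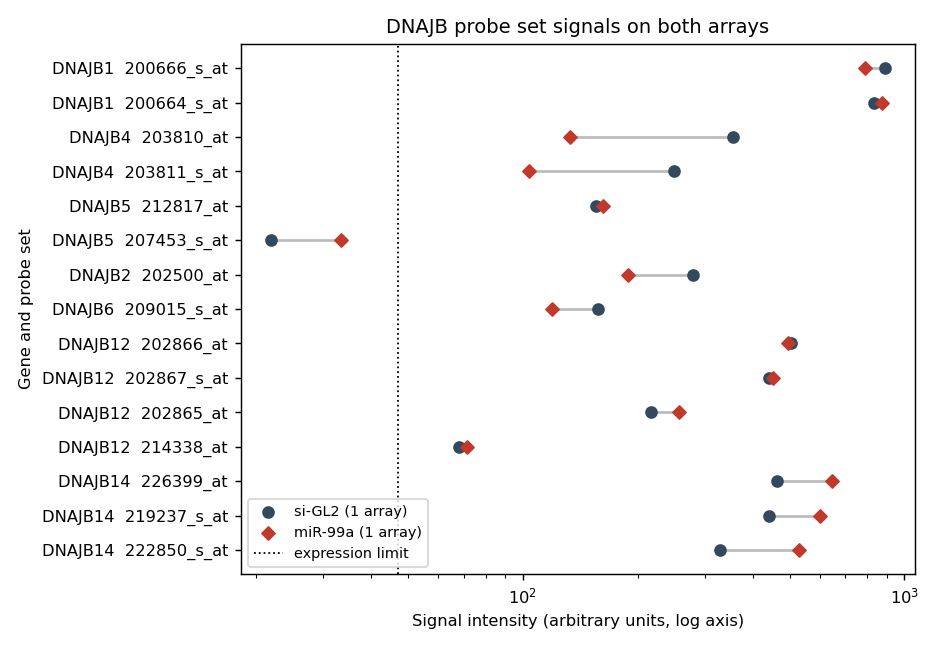
Signal intensity (log axis, arbitrary units) of each of the 15 DNAJB probe sets on the si-GL2 array (circles) and the miR-99a array (diamonds), 1 array each; the dotted line is the expression limit of 47.2. Both DNAJB4 probe sets lie far lower after miR-99a (133 and 104) than after si-GL2 (356 and 249), and the 3 DNAJB14 probe sets lie higher.

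DNAJB4, also called HLJ1, is a heat-inducible relative of DNAJB1 that has been studied as a suppressor of tumour cell invasion. Its brightest probe set, 203810_at, had a signal of 133 with miR-99a and 356 with si-GL2. This is a difference of -1.32 on the log2(signal + 16) scale, or a 2.68-fold lower linear signal. The second, 203811_s_at, had a signal of 104 with miR-99a and 249 with si-GL2, differing by -1.15, or a 2.40-fold lower linear signal. Both probe sets were thus lower on the miR-99a array, and their differences lay 0.17 apart, within the pooled SD of 0.20 between probe sets of a gene. The letter s in a probe set's name marks probes that can match several transcripts, and 203810_at carries none. In bulk RNA, fewer cells with DNAJB4 message and less of it per cell cannot be told apart. DNAJB4 ranked as the 13th lowest difference among the 12218 expressed genes. It was 1 of 7 genes, among the 5842 with at least 2 expressed probe sets, whose expressed probe sets were all at least 2-fold lower. At 2-fold, 0.336% of all expressed genes were lower by their brightest probe set. Since DNAJB4 was chosen for its low value, its rank and these counts restate that choice.

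**Figure D2:**
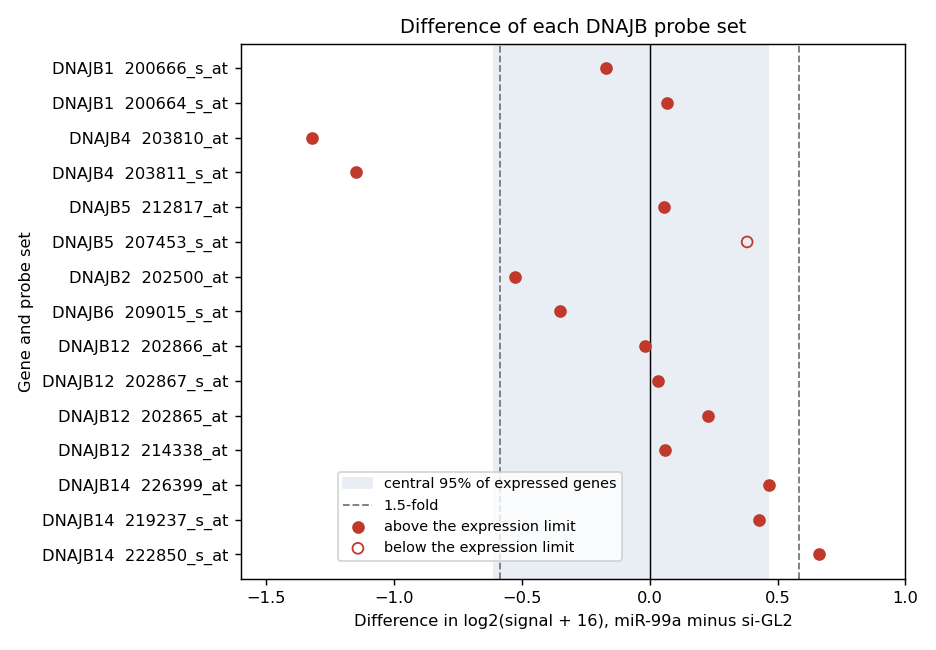
Difference in log2(signal + 16), miR-99a minus si-GL2, of each DNAJB probe set; filled points are above the expression limit, the open point is below it, the band holds the central 95% of all expressed genes and dashed lines mark 1.5-fold. The DNAJB4 points, at -1.32 and -1.15, lie below the band, the DNAJB14 points at 0.47 and 0.66 lie above its upper end of 0.46, and the remaining expressed points lie within it.

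DNAJB1, the main heat-inducible J-domain partner of cytosolic HSP70 and a close relative of DNAJB4, did not share this difference. Its probe set 200664_s_at had a signal of 872 with miR-99a and 831 with si-GL2, differing by 0.07. The other, 200666_s_at, had 787 with miR-99a and 887 with si-GL2, differing by -0.17. The probe sets of DNAJB1 differed in sign and lay 0.24 apart, so no direction is given for this gene. DNAJB5, the third close relative, had a signal of 162 with miR-99a and 156 with si-GL2 by 212817_at, a difference of 0.05. Its other probe set, 207453_s_at, was below the expression limit at 33.4 against 21.9 (0.38). The 3 genes most alike in domain layout thus had brightest-probe-set differences of -1.32 for DNAJB4, 0.07 for DNAJB1 and 0.05 for DNAJB5, and no test of these gaps exists with 1 array a group.

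DNAJB2, or HSJ1, carries ubiquitin-interacting motifs and passes clients to the proteasome. Its 1 probe set, 202500_at, had a signal of 189 with miR-99a and 279 with si-GL2. The difference of -0.53 fell short of 1.5-fold (0.58 on the log2 scale), and 3.87% of expressed genes were lower still. With a single probe set, DNAJB2 has no check within the arrays. DNAJB6, a strong inhibitor of polyglutamine and amyloid aggregation, was measured by 1 probe set of its own, 209015_s_at, with a signal of 119.6 on the miR-99a array and 157 on the si-GL2 array (-0.35). The annotation gives another 2 probe sets to both DNAJB6 and TMEM135, and these do not count as members. They had 1129 against 1113 (0.02) by 208810_at and 892 against 777 (0.19) by 208811_s_at, so the probe set assigned to DNAJB6 alone and the brighter shared ones differed in sign.

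DNAJB12 and DNAJB14 recruit HSC70, the constitutive HSP70, to the endoplasmic reticulum membrane, where they take part in the degradation of misfolded membrane proteins. DNAJB14 was higher after miR-99a by each of its 3 probe sets. By 226399_at its signal was 646 with miR-99a and 463 with si-GL2, differing by 0.47. By 219237_s_at it was 599 with miR-99a and 442 with si-GL2, differing by 0.43. By 222850_s_at it was 529.9 with miR-99a and 329 with si-GL2, differing by 0.66, the 1 expressed member probe set past 1.5-fold upward. DNAJB14 was 299th from the highest of the expressed genes, with 2.44% of them higher still. Of 2611 genes with at least 3 expressed probe sets, 15 including DNAJB14 had none below the lowest difference of DNAJB14 (0.43). That limit was taken from DNAJB14 itself, so nothing is read from this count.

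DNAJB12, the paralog of DNAJB14, lay nearer to 0. Its 4 probe sets were all expressed. The brightest, 202866_at, had 496 with miR-99a and 503 with si-GL2, differing by -0.02. The next, 202867_s_at, had 453 against 443 (0.03), and the dimmest, 214338_at, had 71.5 against 68.0 (0.06). The highest of the 4 differences was 0.23, from 256 with miR-99a against 216 with si-GL2 by 202865_at. The DNAJB12 probe sets, between -0.02 and 0.23, thus all lay below those of DNAJB14, between 0.43 and 0.66.

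**Figure D3:**
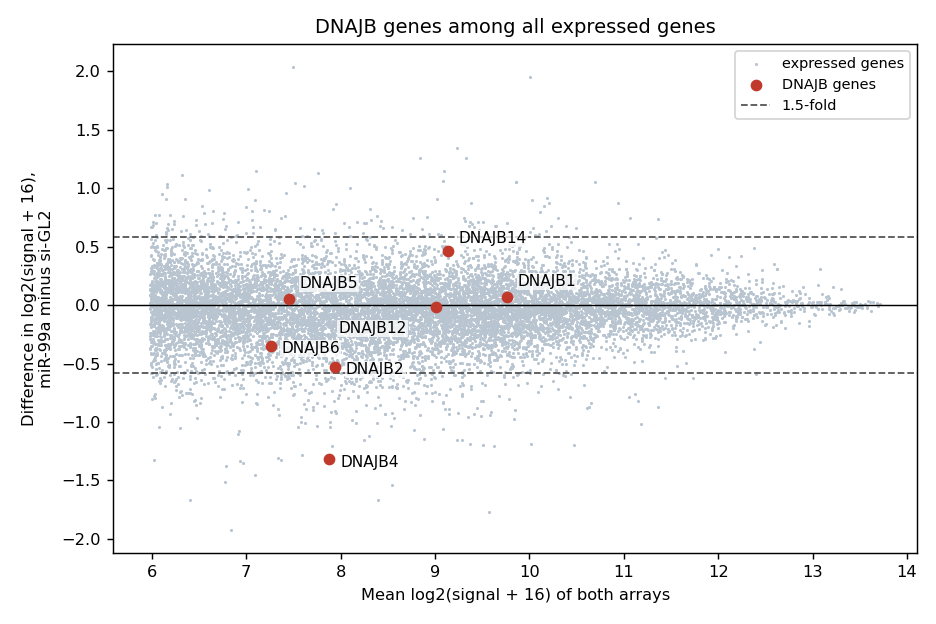
Difference in log2(signal + 16), miR-99a minus si-GL2 (vertical), against the mean level of both arrays on the same scale (horizontal) for the 12218 expressed genes by their brightest probe set, with the 7 DNAJB genes in red and dashed lines at 1.5-fold. DNAJB4 at -1.32 lies below the bulk of genes of its level, and the other 6 lie between the dashed lines.

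Ordered by the difference of the brightest probe set, the genes ran from DNAJB4 (-1.32) through DNAJB2 (-0.53), DNAJB6 (-0.35), DNAJB12 (-0.02), DNAJB5 (0.05) and DNAJB1 (0.07) to DNAJB14 (0.47). Neighbours in this order from DNAJB2 to DNAJB6 and from DNAJB12 to DNAJB1 lay within the pooled SD of 0.20 between probe sets of 1 gene. DNAJB4 stood 0.79 below DNAJB2 and DNAJB14 stood 0.40 above DNAJB1. The pooled SD measures no error between arrays, and none of these gaps has a test. Levels of different members were not ranked, because signals of different probe sets share no common scale. By distance between the pair of log2 levels over the 2 arrays, the expressed genes nearest to DNAJB4 were KBTBD2 (132 after miR-99a, 354 after si-GL2, distance 0.01), SORBS2 (142 and 348, distance 0.09) and TENT5C (149 and 324, distance 0.20). With only 2 arrays this likeness says no more than that the signals were similar.

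Promoters are shown for the members that hold 2 neighbouring units of the heat shock element, the repeated site of heat shock factors. They were searched since DNAJB1 and DNAJB4 are both known as heat-inducible and had unlike values here. RefSeq windows of 300 bases, 250 before to 50 after a gene start, were found for all 7 genes, 10 windows in all. The 2 units were searched as GAANNTTC or TTCNNGAA, each of which reads alike on both strands, with overlapping matches counted. Such a match was present in 4 of the 10 windows and in 13.5% of all 35116 windows. Several windows can belong to 1 gene, and by gene 3 of the 7 members had a match. The 4 windows belong to DNAJB1, DNAJB4 and DNAJB6; the fourth is another DNAJB1 start, whose match falls after the start, and is not shown. DNAJB1 (chr19:14518417-14518494, minus strand) had matches beginning 77 and 47 bases before the start. DNAJB4 (chr1:78004821-78004868, plus strand) had 1 match 98 bases before the second of its 2 RefSeq starts and none at the first. DNAJB6 (chr7:157336853-157336905, plus strand) had 2 overlapping matches 131 and 126 bases before the start, which form 3 units, GAANNTTCNNGAA. A form of 3 units, this one or TTCNNGAANNTTC, was present in 1 of the 10 member windows and in 0.490% of all windows. Capitals mark the matches, each sequence runs 5′ to 3′ on the strand of its gene, and the build is GRCh38.p14.
DNAJB1: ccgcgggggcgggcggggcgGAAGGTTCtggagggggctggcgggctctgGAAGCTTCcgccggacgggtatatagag
DNAJB4: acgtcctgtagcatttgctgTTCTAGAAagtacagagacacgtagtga
DNAJB6: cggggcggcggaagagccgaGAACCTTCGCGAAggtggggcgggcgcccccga
The 3 genes with a match in these windows had differences of 0.07, -1.32 and -0.35 by their brightest probe sets. A match is a description of the sequence and was not shown to be a bound site. The search was prompted by members known as heat-inducible, so nothing is read from the shares of windows.

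Of 78 expressed genes on the chaperone lists outside the members, 2 passed 1.5-fold downward and 2 upward, beside 2.90% and 1.21% of all expressed genes. Counts this small cannot show whether these lists differ from all expressed genes. Their median difference was -0.02, against -0.03 over all expressed genes. The genes past 1.5-fold were BAG2, DNAJC11, DNAJC8 and DNAJB13. BAG2, which inhibits the ubiquitin ligase CHIP, was 497 with miR-99a against 762 with si-GL2 (-0.60), with its other expressed probe set at -0.05. DNAJC11, a mitochondrial membrane protein, was 461 against 707 (-0.60), with its other probe set at -0.13. DNAJC8, associated with pre-mRNA splicing, was 1789 against 1129.7 by its brightest probe set (0.66), and its others were at 0.76 and 0.15. DNAJB13, a protein of cilia and sperm tails, was 143 against 87.3 (0.62) by its 1 expressed probe set.

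**Figure D4:**
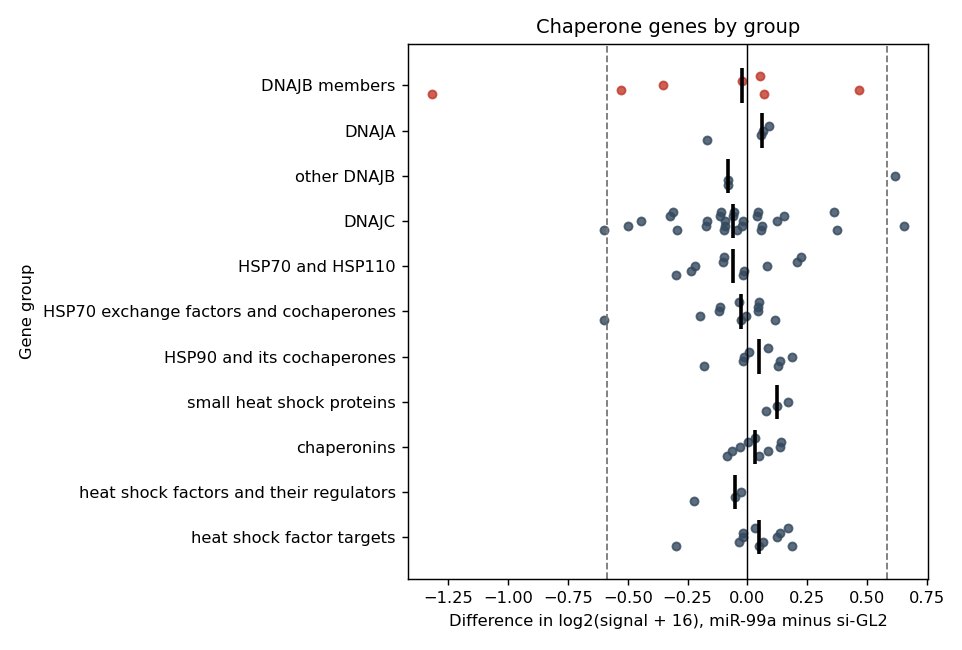
Difference in log2(signal + 16), miR-99a minus si-GL2, of each expressed gene (points, brightest probe set) in the 7 DNAJB members (red) and 10 chaperone lists (dark); black bars are medians, dashed lines mark 1.5-fold, and the last list repeats genes of the others. DNAJB4 at -1.32 is the lowest point, and the list medians lie between -0.08 and 0.12.

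Among the remaining J-domain proteins, 34 of 41 listed genes were expressed, 1 passed 1.5-fold downward and 2 upward, again beside 2.90% and 1.21% of all expressed genes, and the median was -0.06. The 4 DNAJA genes, J-domain proteins of another class that also work with HSP70 chaperones, lay between DNAJA4 (-0.17) and DNAJA2 (0.09) by their brightest probe sets, while DNAJA1 had another expressed probe set at -0.39. The endoplasmic reticulum chaperones DNAJB9 (-0.08) and DNAJB11 (-0.08) had these values by their brightest probe sets, and another expressed probe set of DNAJB9 was at -0.46, from 242 with miR-99a against 340.05 with si-GL2. By their brightest probe sets, the 27 expressed DNAJC genes had a median of -0.06, with 18 below 0. Over all their expressed probe sets, the lowest was 1 of DNAJC21 at -0.96 and the highest was 1 of DNAJC8 at 0.76. DNAJC21 was lower by all 3 of its expressed probe sets (-0.96 to -0.29), and DNAJC12 was lower by all 3 of its own (-0.65 to -0.34). DNAJC22 was higher by all 3 of its own (0.31 to 0.38).

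Of 16 listed HSP70 and HSP110 genes, 10 were expressed and 0 of these passed 1.5-fold, a count to be read beside the 2.90% and 1.21% of all expressed genes. Their median was -0.06, from HSPA4L (-0.30) to the mitochondrial HSPA9 (0.22). The inducible HSPA1A and HSPA1B and the constitutive HSPA8, the main cytosolic HSP70 genes, were not analysed here. Of the 11 expressed exchange factors and cochaperones of HSP70 (median -0.03), BAG2 was the 1 past 1.5-fold, and BAG4 was highest at 0.12. These values are by brightest probe sets, and another expressed probe set of BAG1 was at 0.42. HSP90 and its cochaperones had a median of 0.05 over 8 genes, from UNC45A (-0.18) to HSP90AB1 (0.19) by their brightest probe sets. Another expressed probe set of HSP90B1 was at 0.50 and another of FKBP4 was at 0.32. The 9 expressed chaperonin genes had a median of 0.03, from CCT4 (-0.09) to CCT8 (0.14) by their brightest probe sets. Another expressed probe set of CCT4 was at 0.40 and another of CCT5 was at -0.30. The 3 expressed small heat shock genes lay between HSPB8 (0.08) and HSPB1 (0.17). HSF1, the factor that drives heat shock genes, was 904 with miR-99a against 1058 with si-GL2 (-0.22), with a dimmer probe set at 0.40, and HSF4 was at -0.03. Of 16 listed heat shock factor targets, which repeat genes of these lists, 11 were expressed; HSPA1A, HSPA1B, HSPA8 and AHSA1 were not analysed here, and HSPA6 was below the expression limit. By their brightest probe sets, the 11 had a median of 0.05 and ran from HSPA4L (-0.30) to HSP90AB1 (0.19). Of them 0 passed 1.5-fold, with the same 2.90% and 1.21% of all expressed genes beside that count. DNAJB4 at -1.32 lay below each of these 11. It was chosen for its low value, so nothing is read from this comparison, which has no test.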

How the data were processed

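The values deposited are linear signal intensities, 1 per array for each probe set. Per the labels' protocols, RNA was isolated with Trizol, labelled with biotin and hybridised as Affymetrix describes. How probes were summarised and arrays scaled is not given in the sources used here. Signals were analysed as log2(signal + 16) without further scaling, since the array medians differed by 0.01 on that scale. Their number, 1 array per group, limits the precision. Names came from the platform annotation, and the Entrez identifiers of 41043 probe sets with a single name matched a GRCh38.p14 gene table. Probe sets with several names stayed out. Genes were called by size, at 1.5-fold, without a test. The text names all members, the lowest and highest expressed gene of each list, list genes past 1.5-fold, and the 3 genes nearest DNAJB4. DNAJB9, DNAJB11, the marker genes and list genes named for several or other probe sets are named outside that rule. Members and the 10 lists, written from memory, were chosen with earlier results of these data known. The size rule was tested on simulated data. The closing section gives the effect of 11 alternatives. Python 3.11.15, numpy 2.4.6 and pandas 2.3.3 were used.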

Additional observations from a re-analysis of the deposited data

How the results depend on the processing

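The difference of DNAJB4 was below 0 and past 2-fold at the deposited scaling and under all 11 alternatives, between -1.41 and -1.09, the latter with a pseudocount of 64. Some alternatives kept the same brightest probe set and scale, so its value of -1.32 could not change. These were the 2-fold rule, no expression limit, the limit at the 75th percentile and the removal of _x_ or _s_ probe sets. DNAJB2 (-0.56 to -0.44) and DNAJB6 (-0.39 to -0.27) stayed below 0 in every setting that gave a value. DNAJB14 (0.43 to 0.52) stayed above 0. Each of these genes was always short of 1.5-fold. DNAJB2 and DNAJB6 have 1 probe set each, so averaging over probe sets could not change their values. No setting took in the 2 brighter probe sets that DNAJB6 shares with TMEM135, which differed by 0.02 and 0.19. DNAJB1 (-0.05 to 0.11) and DNAJB12 (-0.03 to 0.07) changed sign. DNAJB5 stayed above 0 (0.04 to 0.22), highest as the mean over all its probe sets, which takes in the dim one. DNAJB1 and DNAJB6 had no value without probe sets marked _x_ or _s_, and DNAJB6 had none above the 75th percentile, since no probe set was left; DNAJB5 had none at that percentile. The member probe sets at least 1.5-fold lower fell from 2 to 1 at the 75th percentile of level and without _x_ or _s_ probe sets. The 1 higher probe set was lost (0) at 2-fold and without _x_ or _s_. Of the other chaperone genes, the 2 lower became 0 at 2-fold, with a pseudocount of 64, after quantile normalization, after removal of a running median and under both probe set averages, and 1 without _x_ or _s_. The 2 higher became 0 at 2-fold and as means over all probe sets, and 1 with a pseudocount of 64, at the 75th percentile, as means over expressed probe sets and without _x_ or _s_. Of all expressed genes, the share lower was 0.336% at 2-fold, 1.47% with a pseudocount of 64 and 1.89% as means over all probe sets; the share higher was 0.139% at 2-fold, 0.606% with a pseudocount of 64 and 2.90% without an expression limit. The alternatives differ in threshold, pseudocount, expression limit, scaling or the probe sets used, and the cause of each change was not tested. With 1 array per group no replicate could be left out. No paired analysis was possible because each group holds 1 sample.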
